A study of Mus musculus with 16 samples.

Results

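The 10 genes described here encode proteins that neutrophils make late in their maturation: S100a8, S100a9, Camp, Ngp, Ltf, Lcn2, Retnlg, Mmp8, Mmp9 and Cd177. They were chosen by symbol as a set of neutrophil secondary granule genes, and all 10 were among the 53342 genes measured. RNA was sequenced from LSK cells, the bone marrow fraction sorted as B220-, CD3-, CD4-, CD5- and CD8- and as Sca1+ and c-Kit+, which contains the stem cells of the blood and their early progeny. The mice were wild type or Gata2 +9.5(Ets)-/-, that is, homozygous for a C-to-T transition in an Ets motif of the +9.5 enhancer of Gata2, a transcription factor of blood stem cells (called the mutant below). They were on a C57BL/6J background, 8 to 14 weeks old, and had been injected with PBS or with 250 mg/kg of 5-fluorouracil (5-FU), a drug that kills dividing cells, 10 days before the marrow was taken. Each genotype had 5 samples after PBS and 3 after 5-FU, 16 in all, with 3000 to 10000 cells sorted for each. The allele is a change of the mouse line itself and not a Cre-driven deletion, and the labels do not say whether a sample was 1 animal or a pool. P-values therefore measure the spread between these samples.

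Neutrophils pack their granules in an order that follows their maturation. Primary (azurophil) granules, with myeloperoxidase and elastase, are filled in promyelocytes. Secondary (specific) granules, with lactoferrin, cathelicidin and lipocalin 2, are filled later in myelocytes and metamyelocytes, under the transcription factor C/EBPε, and gelatinase granules, with matrix metalloproteinase 9, later still. Not every gene of the set codes for a granule protein in the strict sense: S100a8 and S100a9 form calprotectin, which is mostly cytosolic, and Mmp9 belongs to the gelatinase granules. All 10 are known as genes of maturing neutrophils rather than of stem cells.

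The genes lie on 5 chromosomes of the mouse genome (GRCm38, GENCODE M21, positions counted from 1). S100a8 at chr3:90668978-90670035 and S100a9 at chr3:90692632-90695721 are neighbours, 22.6 kb apart on opposite strands. Camp at chr9:109847379-109849617, Ngp at chr9:110419747-110423012 and Ltf at chr9:111019271-111042767 lie within one stretch of chromosome 9, with gaps of 570.1 kb and 596.3 kb. Mmp8 at chr9:7558456-7568485 is far from them on the same chromosome. Lcn2 at chr2:32384633-32388252 and Mmp9 at chr2:164940780-164955850 share chromosome 2, Retnlg is at chr16:48872621-48874496 and Cd177 at chr7:24743983-24760311. All are annotated as protein-coding.

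Since the set is defined by late granulocyte genes, the sequences before their starts were searched for the motifs of 3 families of blood transcription factors. RefSeq promoter windows of GRCm38.p6 were available for 9 of the 10 genes, and the 250 bases before each RefSeq start were read on both strands. The C/EBP motif TTGCNNAA occurred in 6 of the 9 windows (Lcn2, S100a9, Mmp8, Ngp, Ltf and Retnlg), against 9.56% of all 32851 windows. The PU.1 core GAGGAA occurred in 5 of 9 against 23.3% of windows, and a GATA motif, AGATAA or TGATAA, in 2 of 9 (S100a9 and Ltf) against 16.6%. No motif is contained in another, apart from the GATA pair, which share GATAA. A match in a window is a description and not a binding site, and no test was made. The sequences below, 5′ to 3′ on the gene's strand, show where the C/EBP match lies in 4 of the promoters, chosen to cover a calprotectin gene, a metalloproteinase and a pair of secondary granule genes. Capitals mark the match, and bases that GENCODE places inside the transcript were left off.
S100a9, chr3:90695722-90695971, minus strand: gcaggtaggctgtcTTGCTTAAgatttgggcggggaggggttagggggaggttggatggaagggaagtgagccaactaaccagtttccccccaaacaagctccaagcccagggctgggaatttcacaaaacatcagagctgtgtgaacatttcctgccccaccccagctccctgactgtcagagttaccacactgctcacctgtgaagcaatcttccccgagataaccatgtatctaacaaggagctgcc
Mmp8, chr9:7558179-7558428, plus strand: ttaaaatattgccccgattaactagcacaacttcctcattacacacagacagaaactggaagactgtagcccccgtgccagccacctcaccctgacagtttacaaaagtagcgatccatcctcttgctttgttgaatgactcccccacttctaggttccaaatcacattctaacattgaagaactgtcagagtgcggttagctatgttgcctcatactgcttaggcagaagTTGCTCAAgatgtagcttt
Ngp, chr9:110419558-110419746, plus strand: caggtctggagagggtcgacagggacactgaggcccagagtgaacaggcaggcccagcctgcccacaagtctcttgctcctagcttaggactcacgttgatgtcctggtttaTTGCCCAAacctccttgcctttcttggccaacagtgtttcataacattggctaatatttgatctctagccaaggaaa
Ltf, chr9:111019042-111019270, plus strand: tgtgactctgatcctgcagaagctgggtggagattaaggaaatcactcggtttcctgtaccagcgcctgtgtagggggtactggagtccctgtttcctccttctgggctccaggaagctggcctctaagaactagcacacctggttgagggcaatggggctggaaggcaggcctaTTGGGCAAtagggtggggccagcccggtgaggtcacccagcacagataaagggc
The match begins 236 bases before the RefSeq start in S100a9, 19 in Mmp8, 138 in Ngp and 75 in Ltf, where it is read on the opposite strand. Ngp has a further match 11 bases before its RefSeq start, within the bases left off.

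Libraries held between 19.37 and 28.88 (in units of 1000000) expected counts. A level of 3 counts, used for bounds where a group held 0 counts, corresponded to between 0.0798 and 0.272 counts per 1000000 (CPM). Of 10 stem and progenitor marker genes, Kit and Ly6a (which encodes Sca-1) among them, 10 had a group mean of at least 1 CPM in each group. Immunoglobulin genes, the products of plasma cells, took between 3.67 and 50.2% of the counts under PBS, between 0.0392 and 0.332% in wild type after 5-FU and between 5.69 and 26.6% in the mutant after 5-FU. The gate names no myeloid surface antigen among the excluded ones. The data are bulk, so that fewer cells of a type and less RNA per cell cannot be told apart.

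Under PBS the 10 genes were expressed at high levels in both genotypes and took between 0.304 and 1.24% of all counts. Their summed share in the 5 wild-type libraries was 1.02, 0.504, 1.17, 0.304 and 0.851%, with a mean of 0.77 ± 0.36% (SD, n = 5). In the 5 mutant libraries it was 0.395, 0.532, 1.24, 0.459 and 0.549%, with a mean of 0.635 ± 0.344% (SD, n = 5). Counted without the immunoglobulin genes, the means were 1.14 and 0.992%. After 5-FU the share in wild type was 0.000321, 0.000209 and 0.00506%, and in the mutant 0.000258, 0.00938 and 0.000586%. Each of the 6 libraries after 5-FU lay below each of the 10 PBS libraries.

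Compared per transcript length (TPM, transcripts per 1000000), the calprotectin genes led under PBS. In wild type, S100a9 stood at 3720 ± 1858 and S100a8 at 3417 ± 1701 TPM (SD, n = 5), followed by Ngp at 1585 ± 814 and Camp at 1023 ± 570 TPM. Lcn2 at 483 ± 233, Ltf at 348 ± 289 and Retnlg at 253 ± 149 TPM formed the middle of the order. Mmp9 at 41.4 ± 42.1, Mmp8 at 40.4 ± 38.9 and Cd177 at 36.4 ± 31.8 TPM came last. The mutant had the same 8 genes in the first 8 places, from S100a9 at 3150 ± 1474 to Mmp9 at 31.5 ± 27.1 TPM, and Cd177 and Mmp8 changed places. The ranges over libraries of neighbouring genes overlapped at each step of this order in both genotypes, apart from the step from Retnlg to Mmp9. There Retnlg ran from 115 to 418 TPM and Mmp9 from 6.03 to 109 TPM in wild type.

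After 5-FU, all 10 genes fell in wild-type LSK cells. Their log2 fold changes against PBS ran from -6.05 for Lcn2 to -14.63 for Camp, with a median of -10.44, against -0.11 over all 16482 genes tested. By edgeR's quasi-likelihood test with Benjamini-Hochberg adjustment over all genes, 9.31% of genes were called lower and 5.55% higher, 14.9% in either direction. In the mutant, 6 of 10 fell (Ngp, Ltf, Retnlg, Mmp8, Mmp9 and Cd177), with a median over the 10 of -8.29 against -0.03 over all genes. There 1.36% of genes were called lower and 0.837% higher, 2.2% in all. In both genotypes each 5-FU library lay below each PBS library for 10 of the 10 genes. That separation held for 15.8% of all genes in wild type and 4.94% in the mutant. The levels in each library are plotted gene by gene.

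**Figure D1:**
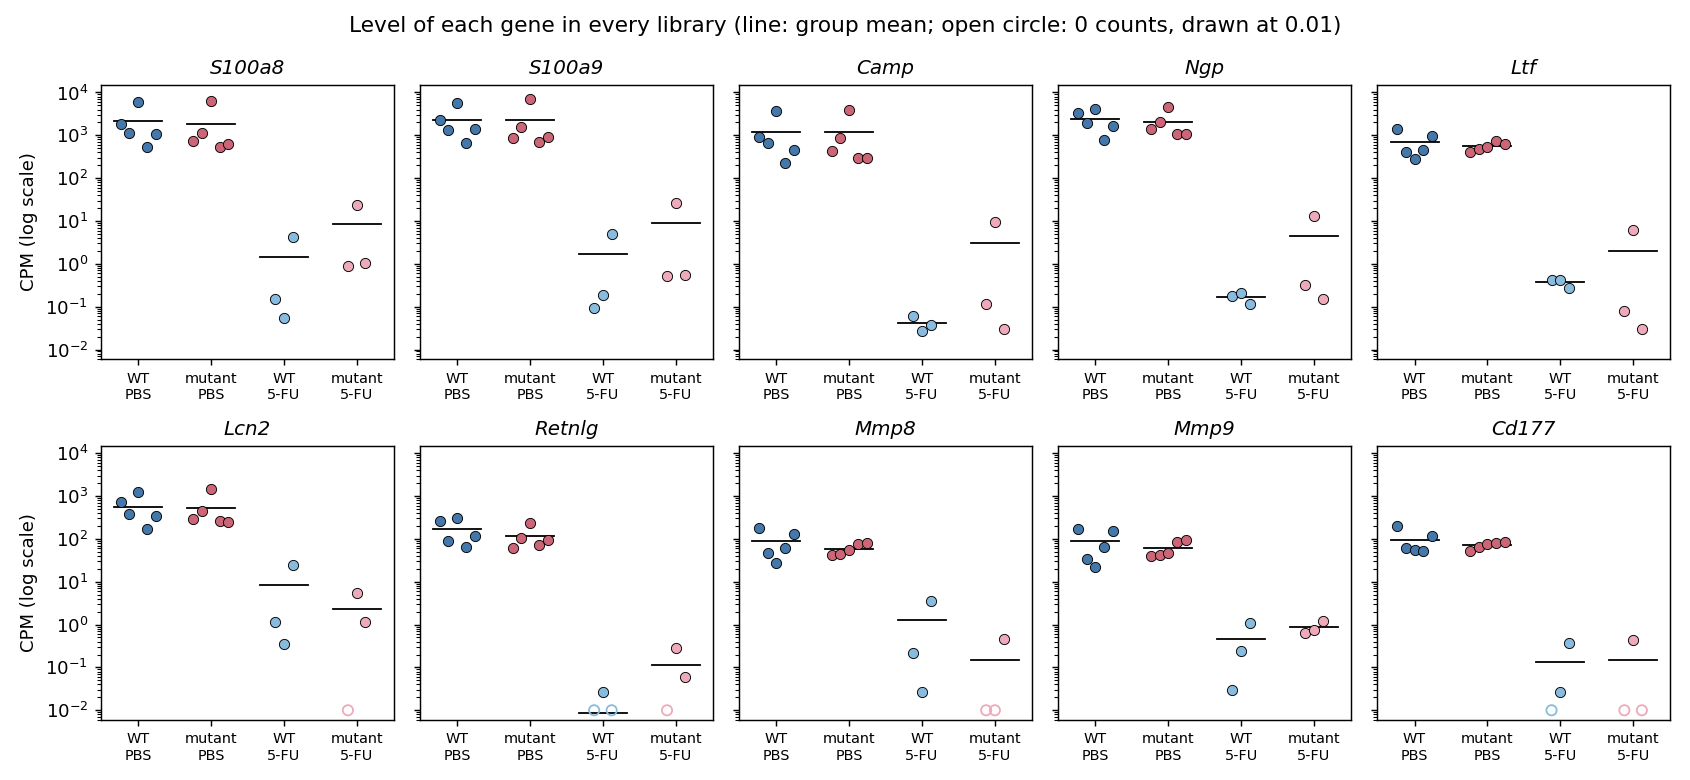
Level of each of the 10 genes (CPM, logarithmic axis) in the 16 libraries, with points for libraries in order of replicate number within each group, lines for group means and open circles for libraries with 0 counts, drawn at 0.01. In every panel the 6 libraries after 5-FU lie below the 10 PBS libraries, and mutant replicate 2 after 5-FU is the highest of its group for S100a8, S100a9, Camp, Ngp, Ltf, Lcn2, Retnlg and Cd177.

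S100a8 and S100a9 encode the subunits of calprotectin, a calcium-binding complex that sequesters zinc and manganese from microbes and signals through Toll-like receptor 4. S100a8 in the wild-type PBS libraries measured 1852, 1160, 5960, 543 and 1073 CPM, and in the mutant PBS libraries 726, 1138, 6312, 533 and 620 CPM. By CPM, replicate 3 of each genotype was the highest by a wide margin. By TPM its lead over replicate 5 was small in wild type, at 5120 against 4927 TPM. In the mutant it was 4942 against 2921 TPM. After 5-FU the values were 0.152, 0.0532 and 4.18 CPM in wild type and 0.905, 24.1 and 1.06 CPM in the mutant. Most of what remained sat in 1 library of each genotype, wild-type replicate 3 and mutant replicate 2. S100a8 had a log2 fold change of -10.51 ± 2.32 (SE) in wild type (edgeR adjusted p = 0.0124) and -7.75 ± 2.07 in the mutant (adjusted p = 0.0802).

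S100a9 followed its partner library by library. It measured 2289, 1322, 5731, 666 and 1409 CPM in wild type and 879, 1550, 7207, 686 and 922 CPM in the mutant under PBS. After 5-FU it measured 0.0911, 0.186 and 4.94 CPM in wild type and 0.511, 26.5 and 0.547 CPM in the mutant. The ratio of S100a8 to S100a9 stayed between 0.672 and 1.04 over the 10 PBS libraries, although the CPM of each gene varied more than 10-fold among them. By TPM, wild-type replicate 5 held more S100a9 than replicate 3, 6049 against 4603 TPM. S100a9 had a log2 fold change of -10.37 ± 2.34 in wild type (edgeR adjusted p = 0.0139) and -7.93 ± 2.11 in the mutant (adjusted p = 0.0802).

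Camp, the only cathelicidin gene of the mouse, encodes the precursor of the antimicrobial peptide CRAMP. Under PBS it measured 929, 658, 3614, 224 and 454 CPM in wild type and 433, 875, 3925, 291 and 296 CPM in the mutant. After 5-FU its 3 wild-type libraries held 2, 1 and 1 counts, or 0.0607, 0.0266 and 0.038 CPM, each below the level of 3 counts. The group counts gave a ratio of PBS to 5-FU of 20423, with an exact 95% counting interval from 7976 to 74959 that covers counting error only. In the mutant, replicate 2 held 9.26 CPM, while replicates 1 and 3 held 0.118 and 0.0304 CPM. Its log2 fold changes were -14.63 ± 2.67 in wild type (edgeR adjusted p = 0.00469) and -8.53 ± 2.07 in the mutant (adjusted p = 0.0522).

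Ngp encodes neutrophilic granule protein, a cystatin-related protein of the secondary granules, and had the highest mean CPM of the 10 genes in wild type under PBS. Its PBS values were 3396, 1964, 4145, 778 and 1612 CPM in wild type and 1373, 1995, 4666, 1053 and 1051 CPM in the mutant. It measured 0.182, 0.213 and 0.114 CPM in wild type and 0.315, 12.9 and 0.152 CPM in the mutant after 5-FU. The 3 wild-type libraries were alike, at 6, 8 and 3 counts, and wild-type replicate 3, where calprotectin remained highest, did not stand out in Ngp. Ngp fell in both genotypes, with log2 fold changes of -13.72 ± 1.88 in wild type (edgeR adjusted p = 0.000741) and -8.82 ± 1.56 in the mutant (adjusted p = 0.00779).

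Ltf encodes lactoferrin, the iron-binding protein that is the classical marker of secondary granules. Wild-type PBS libraries held 1423, 412, 279, 464 and 972 CPM of Ltf, and mutant PBS libraries 419, 492, 536, 736 and 624 CPM. Here replicate 3 was not the highest of either group, and in wild type it was the lowest. After 5-FU, Ltf stood at 0.425, 0.426 and 0.266 CPM in wild type and at 0.0787, 6.03 and 0.0304 CPM in the mutant. It fell, with log2 fold changes of -10.87 ± 1.64 in wild type (edgeR adjusted p = 0.00123) and -8.09 ± 1.46 in the mutant (adjusted p = 0.00833).

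Lcn2 encodes lipocalin 2, which binds bacterial siderophores, and is also made by macrophages and epithelia during inflammation. Its PBS levels were 713, 373, 1237, 168 and 339 CPM in wild type and 298, 445, 1445, 259 and 252 CPM in the mutant. After 5-FU, wild type had 1.18, 0.346 and 24.2 CPM and the mutant 0, 5.61 and 1.18 CPM. Wild-type replicate 3 thus kept more Lcn2 than any other library after 5-FU, and Lcn2 had the smallest fall of the 10 genes in wild type, -6.05 ± 1.76 (edgeR adjusted p = 0.0385). This call was lost with the code covariate (adjusted p = 0.122), without the filter on low counts (0.0661) and with the 2 groups fitted alone (0.0512). In the mutant its log2 fold change was -7.89 ± 1.93 (adjusted p = 0.0541). By TPM, Lcn2 led the 10 genes in wild type after 5-FU (21.1 ± 32.9, n = 3), whereas S100a8 led in the mutant (27.1 ± 41.5, n = 3).

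Retnlg encodes resistin-like gamma, a small secreted protein of mouse neutrophils. Under PBS it measured 265, 91.6, 311, 63.3 and 120 CPM in wild type and 63, 106, 240, 71.8 and 92.9 CPM in the mutant. After 5-FU, 1 count was found in the 3 wild-type libraries together, against 15808 under PBS, a ratio of 14388 with a counting interval from 2582 to 568338. The mutant libraries held 0, 9 and 2 counts. Retnlg had the smallest adjusted p of the set in both genotypes, with log2 fold changes of -13.45 ± 1.20 (edgeR adjusted p = 1.8e-05) and -9.84 ± 0.98 (adjusted p = 8.66e-05).

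Mmp8, the neutrophil collagenase of secondary granules, and Mmp9, gelatinase B, degrade extracellular matrix. Mmp8 measured 177, 47.7, 26.8, 63 and 130 CPM in wild type and 42.2, 44.8, 53.8, 76 and 80.6 CPM in the mutant under PBS. It stood at 0.213, 0.0266 and 3.53 CPM in wild type and at 0, 0 and 0.456 CPM in the mutant after 5-FU. Mutant replicate 2, the library with the highest calprotectin after 5-FU, held no Mmp8 count, and wild-type replicate 3 held 93. Mmp8 fell, with log2 fold changes of -6.18 ± 1.31 in wild type (edgeR adjusted p = 0.0094) and -8.48 ± 1.53 in the mutant (adjusted p = 0.00909).

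Mmp9 measured 169, 34.2, 22.6, 64 and 154 CPM in wild type and 40.8, 42.4, 47, 86.3 and 91.9 CPM in the mutant under PBS. After 5-FU it measured 0.0304, 0.239 and 1.1 CPM in wild type and 0.629, 0.761 and 1.21 CPM in the mutant. It was the gene of the set with the most even levels among the mutant libraries after 5-FU. Mmp9 fell, with log2 fold changes of -7.65 ± 1.02 in wild type (edgeR adjusted p = 0.000442) and -6.13 ± 0.94 in the mutant (adjusted p = 0.00269).

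Cd177 encodes a glycosylphosphatidylinositol-anchored protein of secondary granule membranes and of the neutrophil surface that binds PECAM-1. Its PBS values were 197, 60.4, 54.1, 52.6 and 116 CPM in wild type and 52.3, 63.7, 75.8, 81 and 83.6 CPM in the mutant. After 5-FU it had 0, 1 and 10 counts in wild type and 0, 14 and 0 counts in the mutant. Only wild-type replicate 3 and mutant replicate 2 held more than 3 counts. Cd177 fell, with log2 fold changes of -9.58 ± 1.15 in wild type (edgeR adjusted p = 0.000232) and -8.82 ± 1.11 in the mutant (adjusted p = 0.000607).

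The RNA that remained after 5-FU was not spread evenly. Summed over the 10 genes, wild type held 2.34, 1.57 and 38.8 CPM and the mutant 2.56, 85.9 and 4.74 CPM. Wild-type replicate 3 and mutant replicate 2 were each the richest of their group in S100a8 and S100a9. Wild-type replicate 3 was also rich in Lcn2 and Mmp8, whereas mutant replicate 2 was also rich in Ngp and Camp and had no Mmp8. Wild-type replicates 1 to 3 held 2, 1 and 1 counts of Camp and 6, 8 and 3 of Ngp, too few to rank them. Without wild-type replicate 3, the log2 fold change in wild type was -14.29 for S100a8, -13.95 for S100a9, -9.53 for Lcn2, -9.53 for Mmp8, -9.27 for Mmp9 and -12.30 for Cd177. Without wild-type replicate 1 or 2, S100a8, S100a9 and Lcn2 no longer passed the threshold (edgeR adjusted p from 0.0549 to 0.126), and 7 of 10 genes did. In the mutant, leaving out replicate 2 of the 5-FU group gave -12.04 for S100a9 and -13.91 for Camp, which then passed (edgeR adjusted p = 0.0307 and 0.00831). Ngp and Ltf then stood at -13.07 and -13.26, Mmp8 no longer passed (edgeR adjusted p = 0.0507), and 7 of 10 genes were called. Cd177 stood at -13.79, but the remaining mutant 5-FU libraries held 0 counts of it, so this size is set by the fit and is not a measured fold. Without mutant replicate 3 after 5-FU, Mmp8 stood at -13.53, again with 0 counts in the remaining mutant 5-FU libraries and so without a measured size. With the 2 mutant groups fitted alone, Ngp and Ltf no longer passed (adjusted p = 0.11 and 0.114), and 4 of 10 genes were called (Retnlg, Mmp8, Mmp9 and Cd177).

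Sample codes in the labels begin with digits that some samples share, and the labels do not say what the digits stand for. Within the wild-type samples that begin with 715 (PBS replicates 4 and 5, 5-FU replicate 3), 10 of 10 genes had a negative log2 fold change, from -3.39 for Lcn2 to -14.35 for Retnlg, and 4 of 10 passed the threshold (S100a8, Ngp, Ltf and Retnlg). This rests on 1 library after 5-FU, assumed to vary like the others. That library held 0 counts of Retnlg, so the size of the Retnlg value is set by the fit. Among the mutant samples that begin with 0507 (PBS replicates 1 and 2, all 3 of 5-FU), the values ran from -5.56 for Mmp9 to -9.39 for Retnlg, and these 2 genes passed. No set of shared digits holds both genotypes, so that the code and the genotype cannot be told apart.

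Under PBS the genotypes did not differ detectably in any of the 10 genes. The log2 difference, mutant against wild type, ran from -0.01 ± 1.17 for Camp to -0.58 ± 0.82 for Mmp8. The median over the 10 genes was -0.28, against -0.02 over all genes. The smallest p was that of Retnlg, at -0.57 ± 0.50 (unadjusted p = 0.27, edgeR adjusted p = 1). None of the 10 genes was called and none had an unadjusted p under 0.05, in edgeR's quasi-likelihood test, while 0.0182% of all genes were called. DESeq2 and limma-voom called none of the 10 as well. The standard errors leave room for differences of several fold, and the sign of the estimates for S100a8, S100a9, Camp, Ngp, Ltf, Lcn2 and Cd177 changed when single libraries were left out. Those of S100a9 and Camp also changed sign with RLE scaling, to 0.00 and 0.01.

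After 5-FU the genotypes were compared on these low residual levels. No gene of the set was called by edgeR's quasi-likelihood test, against 1.95% of all genes, and 2 of 10 (Camp and Ngp) had an unadjusted p under 0.05. The share of all genes with such an unadjusted p is not given here, so this count has no background to be read against. The median over the 10 was 2.43, against 0.07 over all genes, with 8 values above 0. Camp was at 6.08 ± 2.12 (log2, mutant against wild type, edgeR adjusted p = 0.158) and Ngp at 4.66 ± 1.37 (adjusted p = 0.102). Without mutant replicate 2 they were 0.71 and 0.41 (adjusted p = 0.856 and 0.799). DESeq2 called the same 2 genes, Camp at 6.21 (adjusted p = 0.00216) and Ngp at 4.69 (adjusted p = 0.000482), and limma-voom called none. Of all genes, DESeq2 called 7.94% and limma-voom 30.9% in this comparison. Mmp8 stood the other way, at -2.88 ± 1.40 (edgeR adjusted p = 0.29), and so did Lcn2 at -1.91 ± 1.52 (adjusted p = 0.498). Both signs changed without wild-type replicate 3, to 0.46 for Mmp8 and 1.57 for Lcn2, and that of Lcn2 also with limma-voom, to 0.18. Without mutant replicate 2, the values of S100a8, S100a9, Ltf and Cd177 changed sign, to -0.55, -1.69, -2.73 and -4.65. The size of the Cd177 value is set by the fit, since the remaining mutant libraries held 0 counts of it.

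Whether the response to 5-FU differed between genotypes was tested by the interaction. None of the 10 genes was called by edgeR's quasi-likelihood test, against 0.589% of all genes, and 3 had an unadjusted p under 0.05 (Camp, Ngp and Retnlg). For the unadjusted p, too, the share over all genes is not given here. The interaction was 6.10 ± 2.37 for Camp (edgeR adjusted p = 0.346), 4.89 ± 1.58 for Ngp (adjusted p = 0.23) and 3.61 ± 1.60 for Retnlg (adjusted p = 0.42). Without mutant replicate 2 after 5-FU the values were 0.72, 0.64 and 1.92. A positive value means a smaller fall in the mutant, and 8 of the 10 were positive, with a median of 2.60 against 0.07 over all genes. DESeq2 called Camp at 6.21 (adjusted p = 0.0316) and Ngp at 4.90 (adjusted p = 0.00908), while it called 3.53% of all genes for the interaction. The 10 calls in wild type and 6 in the mutant thus do not show a difference between the genotypes.

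The PBS libraries themselves fell into a pattern within the set. Over the 10 PBS libraries, S100a8, S100a9, Camp, Ngp, Lcn2 and Retnlg rose and fell together, with Pearson correlations from 0.89 to 1.00. The correlations were taken on log2 CPM after the mean of each genotype was subtracted. Ltf, Mmp8, Mmp9 and Cd177 formed a second group, with correlations from 0.85 to 0.98 among themselves and from -0.48 to 0.37 with the first group. These are descriptions over libraries that share a scaling, and replicate 3 of both genotypes weighs heavily in them. The ratio of the calprotectin genes to the metalloproteinases (S100a8 and S100a9 over Mmp8 and Mmp9) was 12, 30.3, 237, 9.52 and 8.75 in wild type and 19.3, 30.8, 134, 7.51 and 8.94 in the mutant.

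Transcript length moved with this split. In replicate 3 against the mean of the other PBS libraries, S100a8 (486 bases) was higher by 2.36 in wild type and 3.06 in the mutant on the log2 scale, and Camp (758 bases) by 2.67 and 3.05. Mmp9 (2300 bases) stood at -2.19 and -0.47, and Mmp8 (2425 bases) at -1.94 and -0.18. Over tested genes with a mean of at least 10 CPM under PBS, the same comparison had a median of 1.33 and 1.09 for 1192 genes shorter than 1000 bases. It was -0.00 and -0.01 for genes from 1000 to 2000 bases and -0.57 and -0.60 from 2000 to 3000 bases. For 2934 genes of 3000 bases or more it was -0.38 and -0.57. The part of length in the levels of the 10 genes was not tested. With both replicate 3 PBS libraries left out, an alternative added after seeing the data, 10 of 10 genes fell in wild type and 7 of 10 in the mutant, where Camp also passed (log2 fold change -7.24, edgeR adjusted p = 0.0358).

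**Figure D2:**
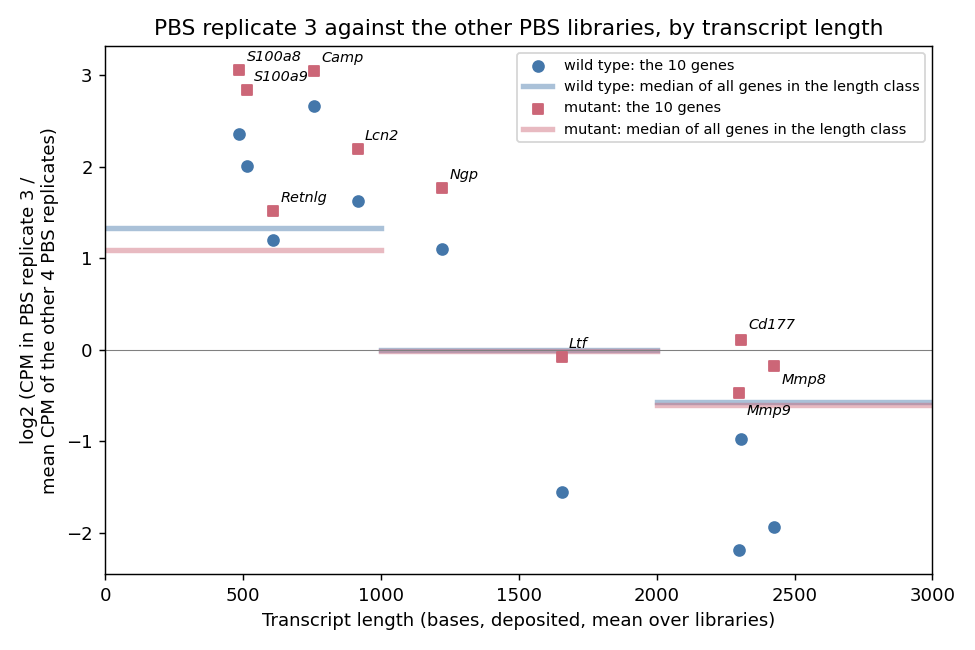
Log2 ratio of the CPM in PBS replicate 3 to the mean CPM of the other 4 PBS libraries of the same genotype (vertical axis) against transcript length in bases (horizontal axis). Points are the 10 genes in wild type (circles) and mutant (squares). Bars are medians of the tested genes with a mean of at least 10 CPM under PBS in a length class, drawn up to 3000 bases. The 6 genes from S100a8 to Ngp in length lie above 0 in both genotypes, and Ltf, Mmp8 and Mmp9 below.

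The other genes of the granulocyte programme were read from lists by maturation stage. Of 8 primary granule genes, none passed the threshold after 5-FU in wild type (median log2 fold change -0.56) or in the mutant (median -1.70) by edgeR's quasi-likelihood test. Elane, neutrophil elastase, stood at 797 CPM under PBS and 57.9 CPM after 5-FU in wild type (-3.78 ± 1.49, edgeR adjusted p = 0.0909). Prtn3, proteinase 3, stood at 350 and 226 CPM (adjusted p = 0.43), and Cd63, a granule membrane protein, at 269 and 153 CPM (adjusted p = 0.0856). In the mutant, Serpinb1a, an inhibitor of these proteases, stood at 336 and 142 CPM (adjusted p = 0.0699) and Mpo, myeloperoxidase, at 1979 and 87 CPM (log2 fold change -4.51, adjusted p = 0.104). Elane had a log2 fold change of -5.76 there (edgeR adjusted p = 0.109). In wild type Mpo stood at 1459 and 1043 CPM. Summed over the 8 genes, the mutant libraries ran from 1646 to 8193 CPM under PBS and from 711 to 927 CPM after 5-FU, without overlap. Wild-type libraries ran from 1980 to 6591 and from 777 to 4298 CPM. The counts of 0 genes past the threshold depended on the fit. In wild type, Elane and Cd63 were called lower with the replicate block (edgeR adjusted p = 0.0383 and 0.00511), by DESeq2 and by limma-voom. Without wild-type replicate 3 after 5-FU, Elane stood at -7.05 and was called (edgeR adjusted p = 0.0229). Leaving out any other wild-type library gave no call. In the mutant, the block called 1 of 8 lower (Serpinb1a, adjusted p = 0.0171), DESeq2 4 (Ctsg, Elane, Mpo and Serpinb1a) and limma-voom 3 (Elane, Mpo and Serpinb1a).

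Of 17 tested genes for other late granule and cytosolic proteins, 13 fell in wild type, 8 fell in the mutant, and none rose. The list median was -5.41 in wild type; in the mutant it was -3.42, or -2.94 with genes at 0 counts set to their bound. Itgb2l, a neutrophil integrin beta chain, averaged 25.4 CPM under PBS and had 0 counts in wild type after 5-FU, at least 267-fold lower against a level of 3 counts per library. Olfm4, olfactomedin 4 of secondary granules, was at least 106-fold lower in wild type and at least 41-fold lower in the mutant. Chil3, a chitinase-like protein, went from 523 to 0.163 CPM in wild type. Anxa1, annexin A1, which is made in many cell types, fell, with log2 fold changes of -1.59 ± 0.28 in wild type and -1.71 ± 0.28 in the mutant (edgeR adjusted p = 0.00215 and 0.00348).

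Surface receptors and cytokines of mature neutrophils did not move as one. Of 18 genes, 6 fell and 3 rose in wild type (median -1.60), and 3 fell and 2 rose in the mutant (median -0.98). Ly6g, the surface marker used to sort mouse neutrophils, averaged 21.6 CPM under PBS and had 0 counts in wild type after 5-FU, at least 227-fold lower. In the mutant it went from 2063 to 2 counts, a ratio of 831 with a counting interval from 230 to 6868. Fpr2, a formyl peptide receptor, went from 727 counts to 1 in wild type, a ratio of 662 with an interval from 118 to 26171. Clec4e, a C-type lectin receptor, rose by 2.06 ± 0.27 in wild type (edgeR adjusted p = 0.000391). Cxcr1 rose in both genotypes and Fcgr4 in the mutant, named after their values were seen. Csf3r, the receptor for granulocyte colony-stimulating factor that progenitors also carry, stood at 90 CPM under PBS and 160 CPM after 5-FU in wild type (adjusted p = 0.125), and Cxcr2 at 9.07 and 7.49 CPM (adjusted p = 0.756).

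Among 9 regulators of myeloid genes, 2 fell in each genotype and none rose. Cebpe, which encodes C/EBPε, averaged 7.43 and 7.33 CPM under PBS in wild type and mutant and 0.413 and 0.235 CPM after 5-FU. It fell, with log2 fold changes of -4.20 ± 0.92 in wild type (edgeR adjusted p = 0.00884) and -4.91 ± 0.96 in the mutant (adjusted p = 0.0114). The second was Irf8, a regulator of monocyte and dendritic cell fate, in wild type (-1.73 ± 0.45, adjusted p = 0.0205) and Klf5 in the mutant (-1.69 ± 0.38, adjusted p = 0.0268). Spi1, which encodes PU.1, stood at 149 and 132 CPM in wild type (adjusted p = 0.542).

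Of 6 NADPH oxidase genes, which serve the respiratory burst of phagocytes, 5 fell in wild type and 2 in the mutant. Cybb, the catalytic subunit, went from 186 to 14.6 CPM in wild type (-3.67 ± 0.76, edgeR adjusted p = 0.00657), and Ncf1 from 117 to 16.3 CPM in the mutant (-2.84 ± 0.50, adjusted p = 0.00533). Of 9 tested receptors, partners and inhibitors of the set's proteins, 1 rose in wild type and none passed in the mutant. The one that rose was Pecam1, the partner of CD177, from 41.2 to 86.2 CPM (1.06 ± 0.27, adjusted p = 0.0197). Tissue inhibitors of metalloproteinases were not called.

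**Figure D3:**
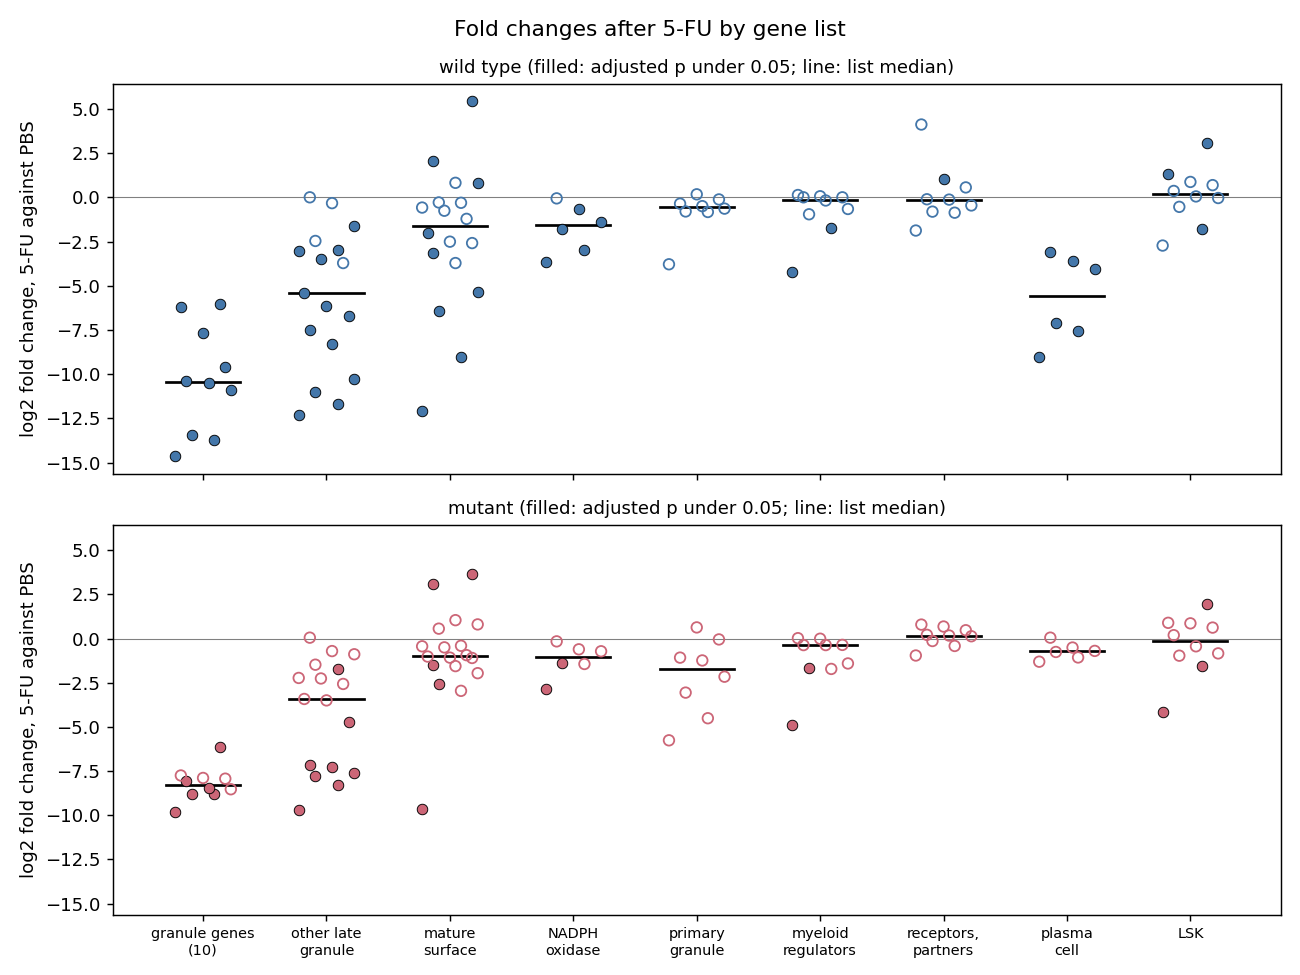
Log2 fold change of each gene, 5-FU against PBS, in wild type (upper panel) and mutant (lower panel), by gene list, with filled points for an adjusted p under 0.05 and lines for list medians. The 10 granule genes have medians of -10.44 and -8.29, and the 8 primary granule genes of -0.56 and -1.70 with none filled.

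Markers of other blood cells moved as well in wild type after 5-FU. Of 6 plasma cell genes, 6 fell, with a summed level from 3104 to 64341 CPM under PBS and from 137 to 375 CPM after 5-FU. All 6 B cell, 6 of 7 macrophage, 5 of 6 erythroid, 5 of 6 T and NK cell, 4 of 5 eosinophil and basophil and 1 of 7 monocyte genes fell too. In this group Pax5, Cd2, Cd3e, Slc4a1, Epx, Ear1 and Prss34 had 0 counts. Of the 10 LSK genes, 1 fell (Flt3) and 2 rose (Slamf1 and Mecom). The part of other cell types in the fall of the 10 granule genes was not tested.

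The same lists were read in the mutant. None of the plasma cell, B cell, T and NK cell, macrophage, monocyte or erythroid genes was called after 5-FU in the mutant, by edgeR's quasi-likelihood test. The 6 plasma cell genes summed to 19185, 10086 and 2252 CPM there, beside 2.56, 85.9 and 4.74 CPM for the 10 granule genes. Jchain, the joining chain of secreted antibodies, averaged 22711 CPM under PBS and 9166 CPM after 5-FU in the mutant (log2 fold change -1.31 ± 1.25, edgeR adjusted p = 0.756). In wild type it went from 23124 to 44.4 CPM (-9.03 ± 1.85, adjusted p = 0.00866). The mutant library with the highest plasma cell level, replicate 1, had the lowest granule level of its group. Of 7 mature neutrophil markers, 2 fell in the mutant and 4 in wild type, and none rose in either. After 5-FU, 2 of the 7 were higher in the mutant than in wild type and none was lower. The summed level of the 7 in the mutant was 127 to 209 CPM under PBS and 68.9 to 119 CPM after 5-FU. In wild type the sum was 112 to 256 and 174 to 207 CPM, where Csf3r alone averaged 160 CPM after 5-FU. Of the 5 eosinophil and basophil genes, 1 fell in the mutant (Prss34, adjusted p = 0.00665), and Epx, Ear1 and Prss34 were at 0 counts in both genotypes after 5-FU. Whether the granule genes and the other lists differ in their response in the mutant was not tested.

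**Figure D4:**
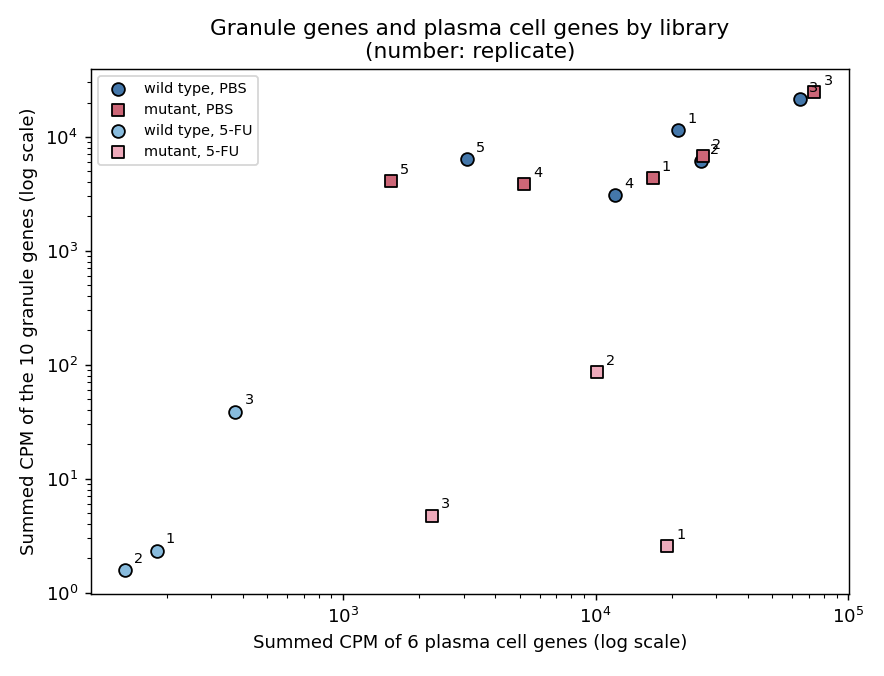
Summed CPM of the 10 granule genes (vertical, logarithmic axis) against the summed CPM of 6 plasma cell genes (horizontal, logarithmic axis), 1 point per library with its replicate number. Wild-type 5-FU libraries are low on both axes, and mutant 5-FU libraries are low on the vertical axis at 2252 to 19185 CPM of plasma cell genes.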

How the data were processed

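Gene expression in LSK cells of 16 samples was measured by RNA sequencing. Per the labels' protocols, RNA came from an RNeasy Micro kit and libraries from a NuGEN Ovation Ultralow kit. RSEM 1.3.1, FastQC 0.11.2 and the mm10 (GRCm38) genome are named in the submitters' processing notes; the aligner is not given in the sources used here. For each gene the authors deposited, per the file headers, the RSEM expected count, which is not scaled to the library, and the deposited TPM, scaled to 1000000 transcripts. FPKM values were deposited as well, per the file headers, and were not used here. Of 53342 gene IDs, 53237 (99.8%) were found in GENCODE M21.

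Expected counts were rounded. The filterByExpr function of edgeR 4.0.16 (minimum count 10) kept 16482 genes, all 10 granule genes included. TMM factors from 0.508 to 1.37 scaled the libraries, also for CPM. The quasi-likelihood F test (robust, 1 mean per group, all 16 samples, R 4.3.3) gave 5 comparisons, with Benjamini-Hochberg adjustment over all genes and a threshold of 0.05. The standard error of a log2 fold change is its size over the square root of F. The script was tested on simulated counts. A gene at 0 counts in a group has its fold against 3 counts per library, as a lower bound. With 1 to 3 counts, the ratio of group counts has an exact 95% interval. Means with SD, correlations and promoter motifs are descriptions.

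The gene set, lists and tests were chosen with earlier results of these data known. Genes named beside the 10 were the 3 with the smallest p of each list, markers of other cell types, and the 6 genes whose log2 CPM correlated best with the mean of the 10. Exceptions are named where they occur, and some list genes that are counted are not reported here by name.

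Replicate numbers are shared between groups in the labels. Same-numbered wild-type and mutant PBS samples deviated together from their group means (r = 0.28, 0.61, 0.75, 0.5 and 0.77 for replicates 1 to 5). For same-numbered samples of other pairs of groups r lay between -0.41 and 0.31. Differently numbered samples were not correlated, so whether the numbers pair the samples cannot be told from these values. The main fit does not use the numbers, and the replicate block is an alternative. The alternatives were RLE scaling, no filter on low counts, TMM without immunoglobulin genes, the replicate block, the way sample codes are written (with or without a leading 0) as a covariate, limma-voom (limma 3.58.1), DESeq2 1.42.0, the 2 groups alone, samples with the same leading code digits, and each library left out.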

Additional observations from a re-analysis of the deposited data

Results flagged for a closer look

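Of 22 tests on CPM for a sample far from the others of its PBS group, 9 were positive, all of them high values in replicate 3. Chance gives about 1 in 20 for a single test. The tests share libraries and genes that rise together, so the 9 are not independent and cannot be set against that rate. By TPM, mutant replicate 3 was the highest for S100a8, S100a9 and Camp. Replicate 5 stood higher by TPM for Ngp, Lcn2 and Retnlg. In wild type these were S100a8 at 5960 CPM (next highest 1852 CPM) and Camp at 3614 CPM. In the mutant they were S100a8 at 6312, S100a9 at 7207, Camp at 3925, Ngp at 4666, Lcn2 at 1445 and Retnlg at 240 CPM, and the sum of the 10 genes at 24507 CPM. Ltf, Mmp8, Mmp9 and Cd177 were not among them. The same 2 libraries had the largest immunoglobulin shares, 44.2% (wild type) and 50.2% (mutant), and the largest plasma cell sums, 64341 and 73590 CPM. Their sums of the 10 LSK genes were the largest too, 5041 and 4428 CPM, against at most 2923 CPM in other PBS libraries. A level of 3 counts was also highest there, at 0.272 and 0.264 CPM, so that each count gave more CPM than in other libraries. The part of these values in the high levels was not tested.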

How the results depend on the processing

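All 10 genes passed in wild type after 5-FU with DESeq2, limma-voom, RLE and both replicate 3 PBS libraries left out. With the code covariate, no low-count filter or the 2 groups alone 9 passed (Lcn2 lost), 4 passed within the samples coded 715, and between 7 and 10 when 1 library was left out. In the mutant the main count of 6 became 10 with DESeq2, with limma-voom and with the code covariate, 7 without both replicate 3 PBS libraries, 4 with the 2 groups alone and 2 within the samples coded 0507; it lay between 6 and 7 with 1 library left out. The comparison of genotypes after 5-FU gave 2 genes with DESeq2, 1 (Ngp) without mutant replicate 3 after 5-FU and 0 to 1 over all libraries left out. The interaction gave 2 with DESeq2 and 0 with any library left out. Under PBS, every setting gave 0. With the replicate block, 10 genes fell in wild type and 8 in the mutant (Camp and Lcn2 added), and 0 were called between genotypes under PBS, after 5-FU and for the interaction. The cause of these changes was not tested.

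No sign of a 5-FU effect changed among the 10 genes. Among list genes, Prtn3 in wild type turned to 0.91 within the samples coded 715 and 0.07 with both replicate 3 PBS libraries left out, and ranged from -1.46 to 0.07 with 1 library left out. Between genotypes under PBS, S100a9 was 0.00 with DESeq2 and RLE, and Camp 0.01 with DESeq2, RLE and the 2 groups alone and 0.00 without immunoglobulin genes. With 1 library left out, S100a8 ranged there from -1.44 to 0.65, S100a9 from -1.13 to 0.62, Camp from -1.26 to 1.00, Ngp from -0.76 to 0.04, Ltf from -0.55 to 0.08, Lcn2 from -0.81 to 0.41 and Cd177 from -0.59 to 0.01. After 5-FU, Lcn2 was 0.18 between genotypes and 0.41 in the interaction with limma-voom. With 1 library left out, the genotype difference after 5-FU ranged from -0.55 to 6.36 for S100a8, -1.69 to 5.99 for S100a9, -2.73 to 3.02 for Ltf, -3.81 to 1.57 for Lcn2, -7.92 to 0.46 for Mmp8 and -4.65 to 3.05 for Cd177. The interaction ranged from -0.37 to 6.54 for S100a8, -1.67 to 6.01 for S100a9, -2.39 to 3.35 for Ltf, -3.74 to 1.64 for Lcn2, -7.35 to 1.04 for Mmp8 and -4.22 to 3.48 for Cd177. In both comparisons the lowest values of Mmp8 and Cd177 came from fits whose mutant 5-FU libraries held 0 counts of the gene, so their size is not measured.

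The count of all genes called depended on the setting: 2450 in wild type became 4597 with DESeq2, 7010 with limma-voom, 7318 with the replicate block, 1012 with the code covariate and 252 within the samples coded 715. In the mutant, 362 became 887 with DESeq2, 1556 with limma-voom, 1014 with the block, 887 with the code covariate and 677 without both replicate 3 PBS libraries. Between genotypes after 5-FU, 321 became 1308, 5100 and 1524 with DESeq2, limma-voom and the block, and 42 with the code covariate. After 5-FU, every mutant code and no wild-type code begins with 0. The effect of the code covariate is thus estimated from the PBS samples alone, and after 5-FU it cannot be told apart from genotype. For the interaction, 97 became 581 with DESeq2.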

Other observations

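The 6 genes outside the set whose level followed the mean of the 10 most closely over the 16 libraries were Chil3 (Pearson r = 0.997), Fcnb (0.989), Itgb2l (0.988), Ceacam10 (0.982), Wfdc21 (0.981) and Rhou (0.978), where r is across libraries of 4 groups that differ in level. Chil3 and Itgb2l also stand in the late granule list. Fcnb, ficolin B, averaged 75 CPM (wild type) and 73.9 CPM (mutant) under PBS. After 5-FU it had 0 counts in wild type, at least 790-fold lower, and averaged 0.222 CPM in the mutant. Ceacam10 had 0 counts in wild type after 5-FU, at least 34.6-fold lower than its 3.29 CPM under PBS. Rhou, a small GTPase, went from 3.31 to 0.114 CPM (wild type) and from 2.51 to 0.074 CPM (mutant).

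Genes beside the 10 did not share their fall as a rule. Within 250 kb of the set's genes, 87 neighbours were tested, of which 8 fell in wild type and 3 in the mutant, beside 9.31% and 1.36% of all genes called lower. Of the neighbours of S100a8, S100a9, Camp, Lcn2, Retnlg and Mmp8, none was called lower in either genotype. Ltf had 3 such neighbours in wild type (Ccrl2, Prss50 and Tmie), and Cd177 had 3 (Cd79a, Rabac1 and Ceacam10), named after their values were seen.

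Of the 18 surface and cytokine genes of mature neutrophils, 4 were higher and 1 lower in the mutant than in wild type after 5-FU, 13 did not pass, and the median was 0.22 (0.10 with genes at 0 counts set to their bound). In the same comparison 5 of 6 plasma cell, 4 of 6 T and NK cell and 3 of 6 B cell genes were higher. Among the 4, chosen here after their values were seen, Fcgr4 averaged 0.524 CPM (wild type) and 21.6 CPM (mutant) (log2 difference 5.38 ± 1.04, edgeR adjusted p = 0.0186). Fpr1 averaged 0.111 and 4.25 CPM (5.33 ± 1.10, adjusted p = 0.0258), and C5ar1 0.37 and 5.88 CPM (4.06 ± 0.99, adjusted p = 0.0471).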
